A study of Homo sapiens with 8 samples.

Results

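The DUSP phosphatases examined here are 10 human genes, DUSP1, DUSP2, DUSP4, DUSP5, DUSP6, DUSP7, DUSP8, DUSP10, DUSP14 and DUSP16, whose products remove phosphate from MAP kinases. They were taken by exact symbol from a table of 18787 genes, and the choice was made with these data in view: the members were chosen by their values with LKB1 against control siRNA in each line and in T98 against U87 controls. Those values are therefore given as a description, and where members are counted at a threshold below, the count describes the same values and is no independent test of them. T98 and U87 are established lines from human glioblastoma, and their RNA was sequenced 72 h after an siRNA against LKB1 or a control siRNA had been delivered with a lipid reagent. LKB1 is a serine/threonine kinase encoded by STK11. The 4 groups were T98 with LKB1 siRNA, T98 with control siRNA, U87 with LKB1 siRNA and U87 with control siRNA, with 2 libraries each. All groups were grown in the same serum-containing medium, each line is a single model of glioblastoma, and nothing states that the duplicates came from independent transfections, so that the spread between them may be technical. The design asks which transcripts differ when LKB1 is reduced in glioblastoma cells.

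MAP kinases (ERK, JNK and p38) are switched on by phosphorylation of a threonine and a tyrosine in their activation loop, and dual-specificity phosphatases switch them off by removing both phosphates. The family divides into inducible nuclear enzymes (DUSP1, DUSP2, DUSP4 and DUSP5), cytoplasmic enzymes that prefer ERK (DUSP6 and DUSP7) and enzymes that prefer JNK and p38 (DUSP8, DUSP10 and DUSP16), while DUSP14 is an atypical, small enzyme without the kinase-binding domain. Several of these genes are themselves transcribed in response to MAP kinase activity and so form feedback loops, of which DUSP6 is a widely used marker.

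The promoters of DUSP1, DUSP6 and DUSP10 are shown because DUSP1 and DUSP6 had the widest contrast between the lines and DUSP10 differed with siRNA in T98. They come from the RefSeq promoter table (GRCh38.p14), which held 8 of the 10 members. Each sequence runs 5′ to 3′ from 250 bases before to 50 bases after the annotated start, on the minus strand of chr5:172771146-172771445 for DUSP1, chr12:89352452-89352751 for DUSP6 and chr1:221742040-221742339 for DUSP10. Capitals mark cAMP response elements, whole (TGACGTCA) or in their 5-base core (TGACG), and the octamers bound by the repressor Capicua, a factor that ERK signalling inactivates.
DUSP1 promoter: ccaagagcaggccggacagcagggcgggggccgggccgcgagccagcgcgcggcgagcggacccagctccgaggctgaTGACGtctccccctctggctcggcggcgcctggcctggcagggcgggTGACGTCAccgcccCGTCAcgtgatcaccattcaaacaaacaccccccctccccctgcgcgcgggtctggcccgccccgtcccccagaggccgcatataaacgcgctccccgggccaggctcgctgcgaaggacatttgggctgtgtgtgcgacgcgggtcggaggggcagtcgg
DUSP6 promoter: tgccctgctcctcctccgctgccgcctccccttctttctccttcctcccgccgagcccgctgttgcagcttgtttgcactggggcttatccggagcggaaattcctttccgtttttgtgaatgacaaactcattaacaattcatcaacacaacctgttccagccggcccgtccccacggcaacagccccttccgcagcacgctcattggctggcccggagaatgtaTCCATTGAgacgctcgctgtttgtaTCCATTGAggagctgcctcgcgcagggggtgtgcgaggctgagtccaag
DUSP10 promoter: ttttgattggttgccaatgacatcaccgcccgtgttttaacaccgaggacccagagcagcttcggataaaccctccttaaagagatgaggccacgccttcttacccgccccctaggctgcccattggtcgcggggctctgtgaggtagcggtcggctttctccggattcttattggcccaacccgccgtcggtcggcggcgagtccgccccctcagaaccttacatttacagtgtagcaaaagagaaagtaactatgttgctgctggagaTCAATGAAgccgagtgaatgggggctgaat

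Each motif was searched on both strands. The DUSP1 window held 1 whole cAMP response element, at position -125 from the start, which contains a core on each strand. Further cores lay at -172 and -111, and a TATAAA box lay at -30. The DUSP6 window held 2 Capicua octamers, at -24 and 2, and the DUSP10 window held 1, at 21. A second annotated DUSP10 start had no octamer and a single core at -4. DUSP8 held 2 whole cAMP response elements, at -118 and -74. No match to these motifs or to the AP-1 site (TGANTCA), the CArG box or the ETS core (CCGGAAG) was found in the windows of DUSP2, DUSP7, DUSP14 and DUSP16. Among 35116 promoters of the same length, 1.85% held the whole cAMP response element, 24.6% its core, 3.77% a Capicua octamer (TGAATGAA, TCAATGAA, TGAATGGA or TCAATGGA), 11.5% TATAAA, 7.71% the AP-1 site, 1.29% the CArG box and 10.3% the ETS core. These matches are letters in a window and were not tested for binding.

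The deposited table holds 1 normalised signal per gene and library, scaled by the authors to a common library size, and all levels below are in this unit. Recovered totals were 25223748 to 38019176 reads per library. STK11 was lower with LKB1 siRNA in both lines. It had 339.9 and 587.6 in T98 with LKB1 siRNA against 1999 and 2041 in T98 with control siRNA, and 360.7 and 384.6 in U87 with LKB1 siRNA against 2445 and 2041 in U87 with control siRNA. VIM (34020 to 292296) and CD44 (37284 to 63018), which glioma lines express, were high in all 8 libraries. The neural stem cell factor SOX2 (0 to 2.89) and the glial S100B (0 to 3.48) were at or near 0, while the astrocyte filament GFAP (1.85 to 50.7) and the glial factor OLIG2 (25.5 to 70.4) were low. NES, a filament of neural progenitors, had 16.2 to 123 in T98 and 1361 to 2073 in U87, and CHI3L1 had 11.1 to 36.1 in T98 and 1618 to 6405 in U87. The immune markers PTPRC (up to 9.63), CD3E (up to 0.961) and CD14 (9.39 to 26.1), the endothelial PECAM1 (up to 28.9) and CDH5 (up to 18.8) and the epithelial CDH1 (up to 24.8) were low. The epithelial EPCAM had 2.37 to 9.52 in T98 and 55.7 to 63.3 in U87. The part of these markers in the differences between the lines was not tested. Column names place 1 library of each group on sequencing lane 2 and the other on lane 4 (T98) or lane 5 (U87). Lane is reported beside each value because libraries of 1 line shifted together between lanes. The duplicates of a group lie on different lanes, so lane cannot be told apart from other differences between duplicates.

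DUSP5 and DUSP6 were the 2 members that were higher with LKB1 siRNA in every lane of both lines without overlap between the siRNAs. Also without overlap, DUSP10 and DUSP14 lay higher and DUSP7 and DUSP16 lower in T98, and DUSP1 and DUSP4 lay higher and DUSP8 lower in U87. DUSP4 was higher in each lane of T98 too, and DUSP10 in each lane of U87, but with overlap. Of all genes tested, 20.5% lay higher without overlap in T98 and 17.6% in U87, and the share that did so in both lines was not counted. Differences below are in log2(value + 1), LKB1 minus control siRNA, with the standard error of a limma-trend fit over 14282 genes. The spread of each gene was estimated from both lines together. A gene therefore has the same standard error in T98 and in U87, which is not the spread of either line alone. DUSP2 did not reach the filter of 10 in 2 libraries, so that 9 of the 10 members entered the fit.

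**Figure D1:**
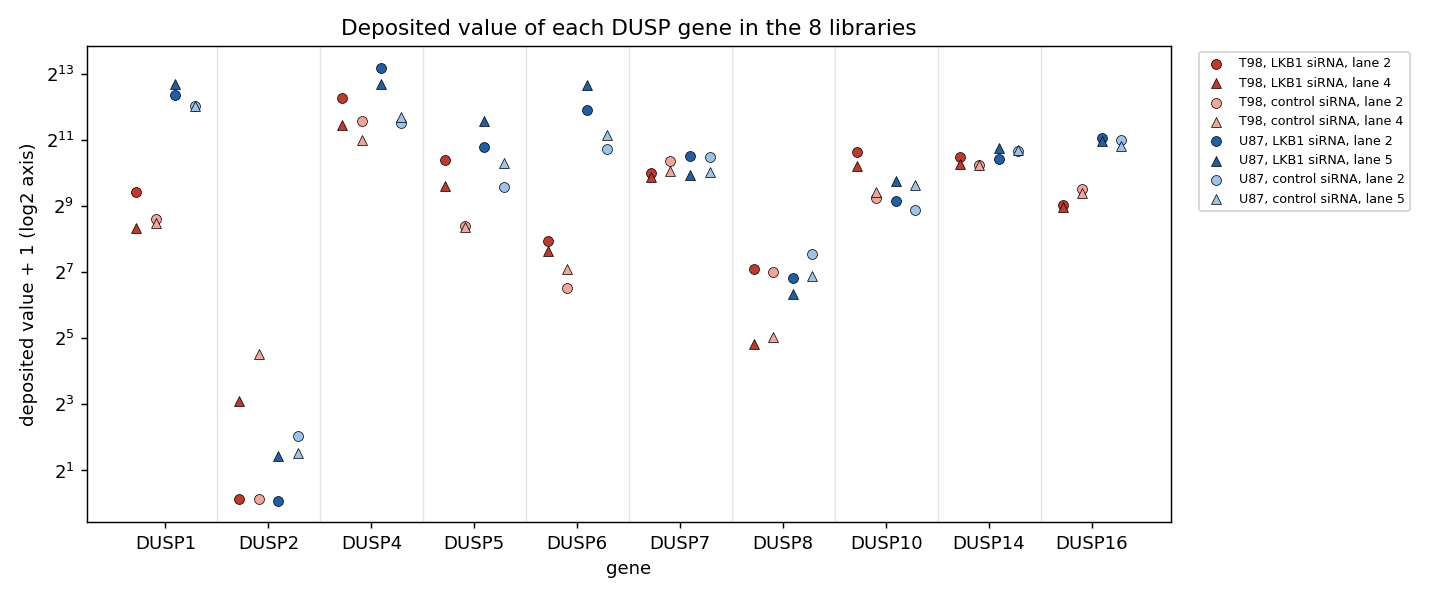
Deposited value plus 1 on a log2 axis for each of the 10 DUSP genes, with 1 point per library, circles for lane 2 and triangles for lane 4 or 5. DUSP1 and DUSP6 lie far lower in T98 (red) than in U87 (blue), and DUSP5 and DUSP6 lie higher with LKB1 siRNA (dark) than with control siRNA (light) in both lines.

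Among the inducible nuclear enzymes, DUSP5, which acts on ERK only (NM_004419; plus strand, hg19 chr10:112257625-112271302), had values of 1341 and 775.4 in T98 with LKB1 siRNA on lanes 2 and 4, against 333.6 and 326.6 in T98 with control siRNA. The U87 values were 1766 and 3027 with LKB1 siRNA on lanes 2 and 5, against 770.8 and 1255 with control siRNA. Both LKB1 siRNA libraries lay above both control libraries in each line. The difference was 1.62 (SE 0.19) in T98, the largest of the members in that line, and 1.23 (SE 0.19) in U87. By lane it was 2.0 and 1.24 in T98, and 1.20 and 1.27 in U87.

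DUSP4, a nuclear phosphatase of ERK and JNK (NM_057158), had 4918 and 2833 in T98 with LKB1 siRNA on lanes 2 and 4, against 3044 and 2056 in T98 with control siRNA. The siRNA groups overlapped in T98, because both lane 2 libraries were higher than their lane 4 partners. U87 held 9373 and 6608 with LKB1 siRNA on lanes 2 and 5, against 2914 and 3357 with control siRNA, with no overlap. The difference was 0.58 (SE 0.18) in T98 and 1.33 (SE 0.18) in U87.

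DUSP1, an immediate early gene product that prefers p38 and JNK (NM_004417; minus strand, hg19 chr5:172195093-172198203), had 684.6 and 325.7 in T98 with LKB1 siRNA on lanes 2 and 4, against 389.1 and 356.9 in T98 with control siRNA. The lane 2 difference was 0.81 and the lane 4 difference -0.13, so the T98 lanes did not share a direction. Its U87 values were 5308 and 6681 with LKB1 siRNA on lanes 2 and 5, against 4201 and 4219 with control siRNA. These U87 groups did not overlap, and the fitted difference was 0.50 (SE 0.22), against 0.34 (SE 0.22) in T98.

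DUSP2, the remaining nuclear enzyme and one best known from lymphocytes, was at most a trace. It had 0 and 8 recovered reads in T98 with LKB1 siRNA on lanes 2 and 4, against 0 and 23 in T98 with control siRNA. U87 had 0 and 2 reads with LKB1 siRNA on lanes 2 and 5, against 3 and 2 with control siRNA. A count of 0 allows up to 3 reads in a library, and no ratio was formed at this depth.

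Of the cytoplasmic ERK phosphatases, DUSP6 (NM_022652; minus strand, hg19 chr12:89741837-89746296) had 247.2 and 198.2 in T98 with LKB1 siRNA on lanes 2 and 4, against 90.7 and 134.9 in T98 with control siRNA. In U87 the values were 3816 and 6506 with LKB1 siRNA on lanes 2 and 5, against 1684 and 2257 with control siRNA. Neither line had overlap between the siRNAs. The difference was 0.99 (SE 0.22) in T98 and 1.35 (SE 0.22) in U87, and by lane it was 1.44 and 0.55 in T98, and 1.18 and 1.53 in U87. In T98 these values rest on 85 to 217 reads per library, in U87 on 1595 to 7679.

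Its closest relative, DUSP7 (NM_001947), ran the other way in T98, with 1015 and 940.3 with LKB1 siRNA on lanes 2 and 4 against 1324 and 1078 with control siRNA. In U87 it had 1454 and 985.1 with LKB1 siRNA on lanes 2 and 5, against 1432 and 1051 with control siRNA. The T98 groups did not overlap and the U87 groups did. The difference was -0.29 (SE 0.13) in T98 and -0.04 (SE 0.13) in U87.

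The JNK and p38 phosphatases also diverged from each other. DUSP10 (NM_007207; minus strand, hg19 chr1:221874764-221915516) had 1602 and 1198 in T98 with LKB1 siRNA on lanes 2 and 4, against 610.8 and 684.5 in T98 with control siRNA. The U87 values were 570.5 and 868.6 with LKB1 siRNA on lanes 2 and 5, against 472.0 and 794.3 with control siRNA, and there the groups overlapped. The difference was 1.10 (SE 0.17) in T98 and 0.20 (SE 0.17) in U87.

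DUSP16, a JNK phosphatase that shuttles between nucleus and cytoplasm (NM_030640; minus strand, hg19 chr12:12626216-12715448), had 525.4 and 503.6 in T98 with LKB1 siRNA on lanes 2 and 4, against 739.8 and 679.7 in T98 with control siRNA. U87 held 2150 and 2026 with LKB1 siRNA on lanes 2 and 5, against 2039 and 1820 with control siRNA. The T98 groups were apart and the U87 groups overlapped. The difference was -0.46 (SE 0.13) in T98, with -0.49 and -0.43 by lane, and 0.12 (SE 0.13) in U87, with 0.08 and 0.15 by lane.

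DUSP8 (NM_004420) was the lowest of the 9 members in the fit and differed most between the lanes in T98. There, lane 2 held 137.3 with LKB1 siRNA against 127.7 with control siRNA, and lane 4 held 27.7 against 32.1. Its U87 values were 112.3 and 79.5 with LKB1 siRNA on lanes 2 and 5, against 186.8 and 116.4 with control siRNA, which did not overlap. The difference was -0.05 (SE 0.23) in T98 and -0.64 (SE 0.23) in U87. DUSP8 overlaps MOB2 on the same strand in the deposited coordinates, so its reads may be shared with that gene. The atypical DUSP14 (NM_007026) had 1435 and 1247 in T98 with LKB1 siRNA on lanes 2 and 4, against 1205 and 1206 with control siRNA, and 1376 and 1733 in U87 with LKB1 siRNA on lanes 2 and 5, against 1624 and 1668 with control siRNA. Its difference was 0.15 (SE 0.14) in T98 and -0.09 (SE 0.14) in U87.

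**Figure D2:**
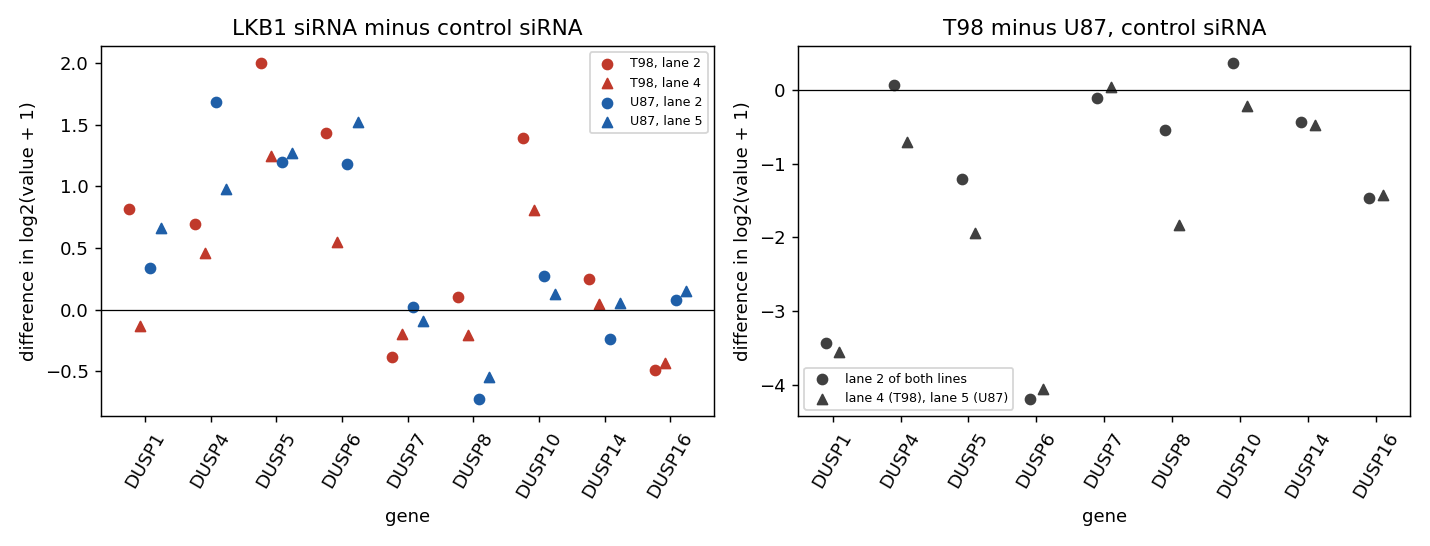
Differences in log2(value + 1) for the 9 DUSP genes in the fit, LKB1 minus control siRNA by lane on the left and T98 minus U87 control libraries on the right. DUSP5 and DUSP6 are above 0 in all 4 lane pairs, DUSP16 is below 0 in both T98 pairs and above 0 in both U87 pairs, and DUSP1 and DUSP6 are the lowest points on the right.

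At an adjusted p under 0.05, 3 members passed as higher in T98 (DUSP5, DUSP6 and DUSP10) and 1 as lower (DUSP16), where 8.48% of all genes tested passed as higher and 7.33% as lower (15.8% in either direction). In U87, 3 members passed as higher (DUSP4, DUSP5 and DUSP6) and 0 as lower, where 5.29% and 5.91% of all genes did (11.2% in either direction). Without overlap between the siRNAs, 4 members lay above and 2 below in T98, where 20.5% of all genes lay above and 20.5% below, and 4 lay above and 1 below in U87, where 17.6% and 20.2% did. Because these comparisons chose the members, nothing is read from those shares. The median difference of the 9 members was 0.34 in T98 and 0.20 in U87, and that of all genes tested was 0.02 in T98 and -0.00 in U87. In each line, 6 of the 9 were above 0, as were 7435 of the 14282 genes tested in T98 and 7114 in U87. The counts at an adjusted p under 0.05 depend on the lane term: without it, 0 members passed in T98, where 0.028% of all genes did, and 0 in U87, where 0.056% did. Leaving out any 1 U87 library also gave 0 in both lines. For the difference between the responses of T98 and U87, 0 of the 9 members passed at an adjusted p under 0.05, where 0.476% of all genes tested did. DUSP4, DUSP10 and DUSP16 (3 members) had an unadjusted p under 0.05, and the share of all genes at that level was not taken. The members' responses are therefore not shown to differ between the lines.

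The members' deviations from the mean of their line, over the same 8 libraries, are described by Pearson's r. DUSP5 followed DUSP6 (r = 0.93) and DUSP10 (r = 0.89), and DUSP10 ran opposite to DUSP16 (r = -0.84) and to DUSP7 (r = -0.79). DUSP4 and DUSP5 had r = 0.75. DUSP14 was close to unrelated to DUSP4 (r = -0.06). These points share libraries, siRNA and lane. Among all other genes, those most like DUSP6 by this measure were ITGA5, an integrin subunit, RNF121 and PAQR7 (r = 0.99 each). Most like DUSP1 were PLTP, a phospholipid transfer protein, MB, encoding myoglobin (r = 0.99 each), and CACTIN (r = 0.98). Most like DUSP14 were ARPC5, a subunit of an actin-nucleating complex (r = 0.97), RAB4B and TCP10L (r = 0.95 each). These genes were picked for the highest r of all genes tested, and a high r does not mean a change of like size. CACTIN differed by only -0.03 to 0.08 between the siRNAs by lane, and MB and TCP10L averaged 27.5 and 8.23.

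DUSP1, DUSP6 and DUSP16 were lower in every T98 library than in any U87 library, whichever siRNA it carried. The share of all genes that lay apart in this way was not counted. Between the control libraries of the lines 37.7% of all genes tested passed, so nothing is read from this separation. DUSP1 averaged 373 ± 22.7 in T98 controls and 4210 ± 13.2 in U87 controls (SD, n = 2 each), 11.3-fold higher in U87, and DUSP6 averaged 113 ± 31.2 in T98 controls and 1970 ± 405 in U87 controls, 17.5-fold higher in U87. DUSP16 averaged 710 ± 42.4 in T98 controls and 1929 ± 155 in U87 controls. The differences, T98 minus U87 controls, were -3.49 (SE 0.33) for DUSP1, -4.13 (SE 0.34) for DUSP6 and -1.44 (SE 0.18) for DUSP16, from the fit without a lane term.

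DUSP5 averaged 330 ± 5.0 in T98 controls and 1013 ± 343 in U87 controls, a difference of -1.57 (SE 0.38). DUSP14 (-0.45, SE 0.19), DUSP4 (-0.32, SE 0.33), DUSP7 (-0.04, SE 0.27) and DUSP10 (0.08, SE 0.33) were within 1 log2 unit between the control libraries. The difference of DUSP8 (-1.19, SE 0.87) was -0.55 on lane 2 and -1.83 on lanes 4 and 5. Of the 9 members, 0 passed as higher in T98 and 4 as lower (DUSP1, DUSP5, DUSP6 and DUSP16), where 18.3% of all genes tested passed as higher and 19.5% as lower (37.7% in either direction). The median was -1.19 for the members and -0.01 for all genes tested. The comparison of the lines shares its control libraries with the comparison of the siRNAs in each line. In the LKB1 siRNA libraries, T98 minus U87 was -2.95 and -4.35 for DUSP1, -3.94 and -5.03 for DUSP6, and 1.49 and 0.46 for DUSP10, on lane 2 and on lanes 4 and 5.

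Per kilobase of transcript, the 10 members summed to 3487 and 2492 in T98 with LKB1 siRNA on lanes 2 and 4, against 2307 and 2099 in T98 with control siRNA. In U87 they summed to 7840 and 9748 with LKB1 siRNA on lanes 2 and 5, against 5395 and 5817 with control siRNA. The sum was higher with LKB1 siRNA in each of the 4 lane pairs, by 1.51-fold and 1.19-fold in T98 and by 1.45-fold and 1.68-fold in U87. The members were chosen by these same differences, so nothing is read from the direction of the sums or of the shares below. In bulk RNA, more cells with a transcript and more transcript per cell cannot be told apart.

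The makeup differed between the lines. DUSP14 had the highest level per kilobase in T98, with 888 on average with LKB1 siRNA and 798 with control siRNA, whereas DUSP1 had the highest in U87, with 2956 and 2076. In T98 with LKB1 siRNA, DUSP4 (527), DUSP10 (424), DUSP5 (418) and DUSP7 (302) followed, and each overlapped the next in the order. In T98 with control siRNA, DUSP7 (371) and DUSP4 (347) followed and overlapped each other, while DUSP10 (196) and DUSP5 (130) lay below both. In U87 with LKB1 siRNA, DUSP6 (1828) was second and lay above DUSP4 (1088), DUSP14 (1029) and DUSP5 (947), which overlapped one another in turn. In U87 with control siRNA, DUSP14 (1089) was second and DUSP6 (698) came after it, without overlap. DUSP8 (17.8 to 33.8 by group) and DUSP2 (0.532 to 6.54) were the lowest in every group.

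As shares of the summed level per kilobase, the inducible nuclear enzymes made up 44.1% and 34.4% in T98 with LKB1 siRNA on lanes 2 and 4, against 32.0% and 28.5% in T98 with control siRNA. In U87 they made up 58.5% and 55.3% with LKB1 siRNA on lanes 2 and 5, against 51.4% and 52.2% with control siRNA. The JNK and p38 phosphatases made up 17.2% and 18.0% in T98 with LKB1 siRNA, against 14.3% and 15.4% in T98 with control siRNA, and 6.86% and 6.17% in U87 with LKB1 siRNA, against 9.40% and 9.54% in U87 with control siRNA. The share of the nuclear enzymes was higher with LKB1 siRNA in all 4 lane pairs, and that of the JNK and p38 enzymes was higher in T98 and lower in U87. Members of a class did not all move together. In T98 the share of DUSP10 was higher with LKB1 siRNA on both lanes, while those of DUSP8 and DUSP16 were lower. In U87 the share of DUSP1 was lower (33.4% and 33.8% against 38.4% and 35.8%), while those of DUSP4 and DUSP5 were higher on both lanes. The level of the JNK and p38 enzymes itself, summed per kilobase, was not lower in U87: it was 538 and 602 with LKB1 siRNA on lanes 2 and 5, against 507 and 555 with control siRNA. In T98 that level was 599 and 449 with LKB1 siRNA on lanes 2 and 4, against 331 and 322 with control siRNA.

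**Figure D3:**
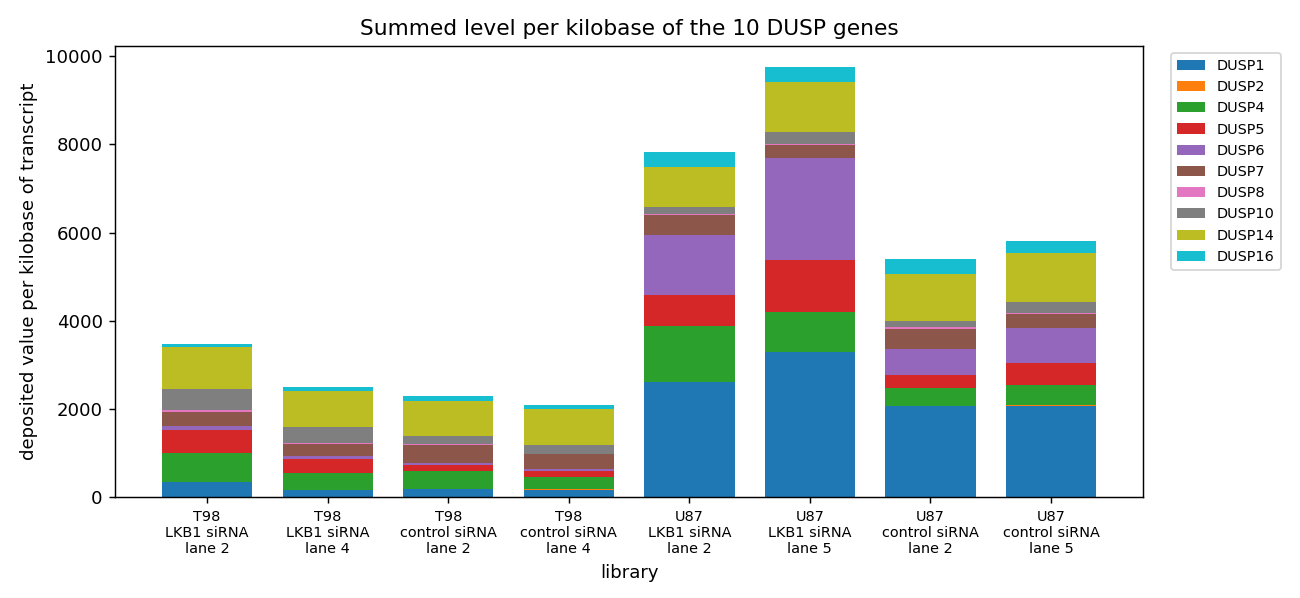
Deposited value per kilobase of transcript for the 10 DUSP genes, stacked by gene, with 1 bar per library. The bars with LKB1 siRNA are taller than their control partners on the same lane, the U87 bars are taller than the T98 bars, and DUSP1 fills the largest part in U87 and DUSP14 in T98.

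The rest of the MAP kinase pathway was described with 10 lists that hold no member, 122 genes of which passed the filter. These were tested for LKB1 against control siRNA with limma-trend and Benjamini-Hochberg adjustment over all 14282 genes. In T98, 17 of the 122 rose and 10 fell (22.1%, against 15.8% of all genes), and in U87, 13 rose and 9 fell (18.0%, against 11.2%). None of the list genes passed at an adjusted p under 0.05 for a difference between the lines' responses (0 of 122, against 0.476% of all genes). At an unadjusted p under 0.05 there were 17 of the 122, and the share of all genes at that level was not taken. Without the lane term, 0 list genes passed in either line, with 18 in T98 and 13 in U87 at an unadjusted p under 0.05. For no count at an unadjusted p, here or below, was the share of all genes taken, and nothing is read from these counts. As with the members, 0 also passed in either line without any 1 U87 library, and 0 passed in T98 without either T98 lane 2 library.

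Genes that ERK activity induces were the list with the most rises: 5 of 18 rose and 0 fell in T98, and 5 rose and 1 fell in U87, with a median difference of 0.31 in T98 and 0.15 in U87. EPHA4, an ephrin receptor, had 4765 and 5108 in T98 with LKB1 siRNA on lanes 2 and 4, against 1597 and 2931 with control siRNA (1.19, SE 0.20, adjusted p = 0.0127). In U87 the values were 411.0 and 447.4 with LKB1 siRNA on lanes 2 and 5, against 97.2 and 124.1 with control siRNA (1.96, SE 0.20, adjusted p = 0.00246). ETV4, an ETS factor, rose in T98 (0.91, SE 0.16, adjusted p = 0.0135), and LIF, a cytokine, rose in U87 (0.98, SE 0.12, adjusted p = 0.00396). EGR2, IER3 and PHLDA1, named after their values were seen, rose in both lines, by 1.19, 0.67 and 0.60 in T98 and by 1.16, 0.79 and 0.61 in U87. HMGA2, a chromatin protein, fell in U87 (-0.49, SE 0.12, adjusted p = 0.0362). The immediate early genes EGR1 (0.26 in T98, 0.12 in U87) and FOS (-0.20 in T98, -0.16 in U87) did not pass.

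Of 12 other negative regulators of ERK signalling, 3 rose and 1 fell in T98, and 3 rose and 0 fell in U87, with a median of 0.22 in each. SPRY4, a Sprouty inhibitor of receptor signalling, had 432.6 and 4472 in T98 with LKB1 siRNA on lanes 2 and 4, against 233.7 and 2030 with control siRNA (1.01, SE 0.16, adjusted p = 0.0108). It had 1342 and 1922 in U87 with LKB1 siRNA on lanes 2 and 5, against 708.5 and 1408 with control siRNA (0.68, SE 0.16, adjusted p = 0.0344). The T98 groups overlapped widely, because both lane 4 libraries were far higher than their lane 2 partners. SPRY2 rose in T98 (0.69, SE 0.15, adjusted p = 0.025) and SPRY1 in U87 (1.30, SE 0.26, adjusted p = 0.0202). SPRED3, a Sprouty-related inhibitor named after its values were seen, rose in T98 (1.01, adjusted p = 0.0368) and in U87 (1.05, adjusted p = 0.0387), and SPRY3 fell in T98 (-0.83, SE 0.23, adjusted p = 0.0489).

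Among 12 MAP kinases, 1 rose and 1 fell in each line (median -0.08 in T98 and -0.01 in U87). MAPK3, which encodes an ERK and is a substrate of DUSP5 and DUSP6, had 1296 and 1761 in T98 with LKB1 siRNA on lanes 2 and 4, against 412.7 and 940.0 with control siRNA (1.28, SE 0.18, adjusted p = 0.00856). In U87 it had 3163 and 3000 with LKB1 siRNA on lanes 2 and 5, against 1746 and 1483 with control siRNA (0.94, SE 0.18, adjusted p = 0.0188). MAPK6, an atypical MAP kinase, fell in T98 (-0.97, SE 0.16, adjusted p = 0.0114) and in U87 (-0.94, SE 0.16, adjusted p = 0.0108).

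Upstream of ERK, 1 of 15 RAS-RAF genes rose and 1 fell in T98, and 1 rose and 2 fell in U87 (median -0.18 in T98 and -0.09 in U87). NRAS, a RAS GTPase, had 2126 and 3591 in T98 with LKB1 siRNA on lanes 2 and 4, against 6202 and 5517 with control siRNA (-1.08, SE 0.22, adjusted p = 0.0202). The U87 values were 3921 and 4321 with LKB1 siRNA on lanes 2 and 5, against 10675 and 8780 with control siRNA (-1.23, SE 0.22, adjusted p = 0.0126). The adaptor SHC1 rose in both lines (0.65 in T98 and 0.48 in U87), and the adaptor GRB2 fell in U87 (-0.61, adjusted p = 0.0199). Among 7 MAP kinase kinases, the ERK activator MAP2K1 fell in T98 (-1.15, SE 0.21, adjusted p = 0.0162) and the JNK activator MAP2K7 rose in T98 (0.51, adjusted p = 0.0404), while 0 of 7 passed in U87 (2 at an unadjusted p under 0.05). MAP2K1 overlaps SNAPC5 on the opposite strand, and the libraries carry no strand.

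In the stress branches, 2 of 13 MAP3K genes rose and 2 fell in T98, and 2 rose and 1 fell in U87 (median 0.25 in T98 and 0.09 in U87). MAP3K3 fell in both lines (-0.82 in T98 and -1.08 in U87), TAOK2 rose in both (0.64 in T98 and 0.52 in U87), MAP3K12 rose (0.75) and MAP3K5, a stress-sensing kinase, fell (-0.77) in T98, and MAP3K4 rose in U87 (0.61). MAP3K3 overlaps LIMD2 and MAP3K12 overlaps PCBP2 on the opposite strand, and the deposited spans of the multi-copy genes BOLA2 and SULT1A3 cover both TAOK2 and MAPK3, so reads of these 4 genes could be shared. Of 16 JNK and p38 effectors and scaffolds, 3 rose and 1 fell in T98, and 1 rose and 1 fell in U87 (median -0.00 in T98 and 0.06 in U87). The JNK scaffold MAPK8IP1 rose in both lines (1.15 in T98 and 0.87 in U87), its relative MAPK8IP2 rose in T98 (1.64), as did JUND (0.63), named after its value was seen, and the stress gene GADD45A fell in both (-0.57 in T98 and -0.56 in U87). Among 7 kinases that ERK activates, RPS6KA4 rose (0.68) and RPS6KA3 fell (-0.74) in T98, and RPS6KA5 fell in U87 (-1.22) (median -0.15 in T98 and -0.19 in U87).

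Of 13 other dual-specificity phosphatases in the fit, 0 rose and 2 fell in T98, and 0 rose and 2 fell in U87, with a median of -0.29 in T98 and -0.31 in U87. DUSP3, which acts on ERK and JNK, had 3558 and 3978 in T98 with LKB1 siRNA on lanes 2 and 4, against 5846 and 5429 with control siRNA (-0.58, SE 0.12, adjusted p = 0.0231). U87 held 4431 and 4835 with LKB1 siRNA on lanes 2 and 5, against 6598 and 6644 with control siRNA (-0.52, SE 0.12, adjusted p = 0.0372). DUSP18 fell in T98 (-0.68) and DUSP22 in U87 (-0.77). DUSP13, the lowest of the list and named after its values were seen, differed by -2.69 in T98 and -3.26 in U87 without passing, on 0 to 47 reads per library. Of 9 phosphatases of other families that act on MAP kinases, 0 passed in either line, with 1 in each at an unadjusted p under 0.05 (median -0.17 in T98 and -0.15 in U87).

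**Figure D4:**
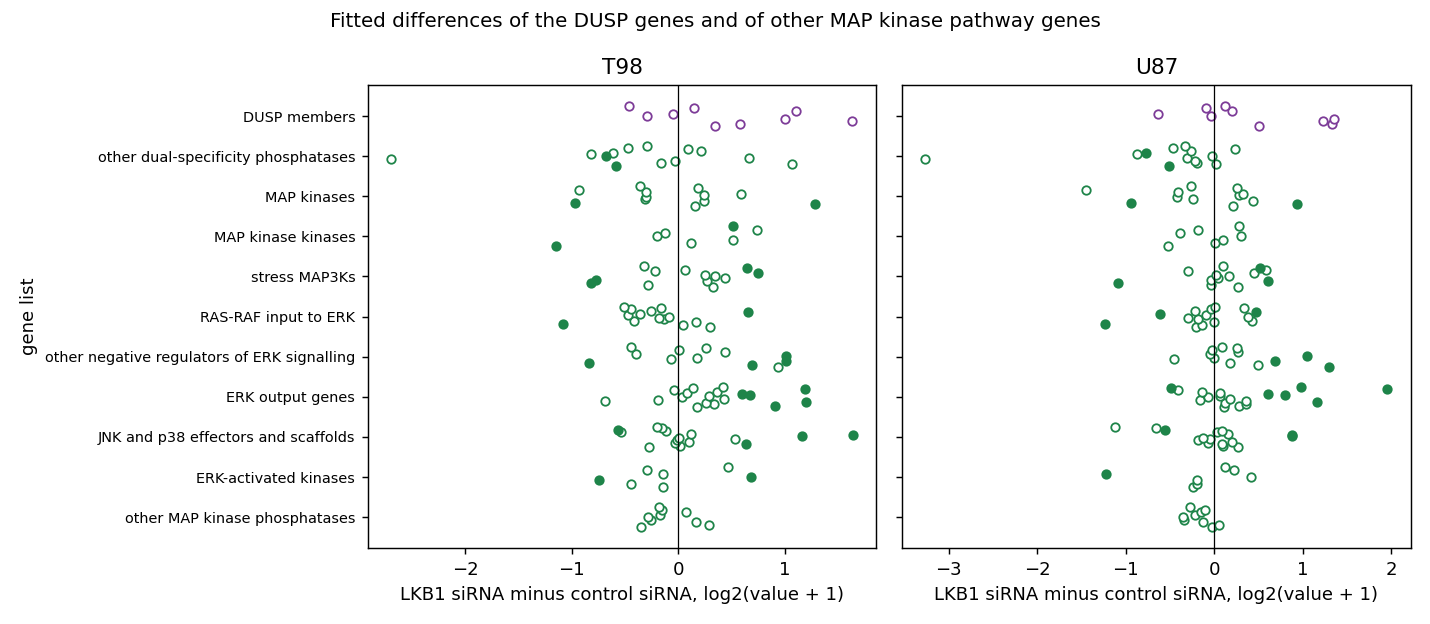
Fitted differences in log2(value + 1), LKB1 minus control siRNA, in T98 (left) and U87 (right), with 1 point per gene and 1 line per list; filled green points passed at an adjusted p under 0.05 and the DUSP genes (purple) are drawn without a test. The DUSP genes reach 1.62 in T98 and 1.35 in U87, and the remaining dual-specificity phosphatases lie mostly below 0.

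Between the control libraries of the lines, 45 of the 122 list genes passed, 11 as higher and 34 as lower in T98 (36.9%, against 37.7% of all genes). DUSP9, a cytoplasmic ERK phosphatase like DUSP6 and DUSP7, was higher in T98, with 44.9 and 93.1 in T98 controls on lanes 2 and 4 against 0.0286 and 4.82 in U87 controls on lanes 2 and 5 (adjusted p = 0.0132). EPHA4 (4.29) and SPRY1 (4.19) were higher in T98, and SPRY2 (-3.05) and IER3 (-3.25) were lower. MAPK10, the JNK of neurons, was lower in T98 (-6.20), as were PTPRR (-4.05), a MAP kinase tyrosine phosphatase, and MAPKAPK3 (-3.90), a kinase that p38 activates.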

How the data were processed

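The authors deposited 1 normalised signal value per RefSeq gene and library; the submitters' processing notes name TopHat2 2.0.8b, edgeR (no version) and the build hg19/GRCh37, and no read counter. The deposited signal has the form of pseudo-counts at a common library size, and inverting it returned whole reads, within 0.05 read, for 99.1% to 100% of values. These served for depth, for the reads per library quoted above and for the alternative with median-ratio scaling. The main fits did not use them. Of 18815 rows, 18787 symbols were kept (the row with the highest mean), and 14282 genes with a value of 10 in 2 libraries were tested. Starts in the deposited table were moved by 1 so that positions count from 1. Libraries carry no strand, per the labels' protocols.

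Two-sided tests came from limma's trend method (version 3.58.1, under R 4.3.3) applied to log2(value + 1), with Benjamini-Hochberg adjustment and a threshold of 0.05. The fit held all 8 libraries, 4 group means and a lane term per line (2 residual degrees of freedom); the lines were compared without a lane term (4 residual degrees of freedom). Fold changes on this scale understate those of low genes. Lane comes from the column names: lane differences correlated at 0.717 (T98) and 0.809 (U87) within a line and at 0.124 to 0.177 between lines, so libraries pair by lane. Intervals and floors on reads cover counting error only.

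Members, lists and lane term were chosen with earlier results of these data known. Named genes were the members, STK11, up to 2 risen and 2 fallen genes per list and line with the smallest adjusted p (1 and 1 between the lines), and the 3 genes most correlated with each of the 3 members highest per kilobase. ATF2, MKNK1 and PTPN7 of the lists were not analysed here. DUSP4 and DUSP5 had no promoter in the RefSeq table. Alternatives changed the lane term, pseudocount, filter, scaling and libraries, and the fit was tested on simulated data.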

Additional observations from a re-analysis of the deposited data

Results flagged for a closer look

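DUSP16 was lower with LKB1 siRNA in both lanes of T98 and higher in both lanes of U87, and the fitted response of T98 minus that of U87 was -0.58. It was among the members that did not pass for this difference (0 of 9 passed), and DUSP16 was chosen by the values it is made of. HMGA2 lay higher with LKB1 siRNA in both lanes of T98 (0.21 and 0.06) and lower in both lanes of U87 (-0.48 and -0.51), a difference of 0.63 (limma-trend, adjusted p = 0.154). SPRY3 lay lower in both lanes of T98 (-1.23 and -0.44) and higher in both lanes of U87 (0.19 and 0.16), a difference of -1.01 (limma-trend, adjusted p = 0.233). Neither HMGA2 nor SPRY3 passed.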

How the results depend on the processing

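Without the lane term (no replicate block), genes called fell to 4 of 2258 in T98, 8 of 1599 in U87, 265 of 3765 for the mean of both lines and 0 of 68 for their difference, and called members and list genes fell to 0 in each line; with a lane term as replicate block the lines differed at 9487 genes in place of 5386. The difference between the responses gave 21 genes with a pseudocount of 0.5, 0 with any value above 0 and 20 with recovered reads at median-ratio scaling, an alternative chosen after seeing the data. Leaving out 1 library gave 0 to 3466 genes in T98, 0 to 2432 in U87, 0 to 4750 for the mean, 0 to 244 for the difference and 3156 to 5369 between the lines. It gave 0 to 4 members in T98, 0 to 4 in U87 and 3 to 4 between the lines, and 0 to 40 list genes in T98 and 0 to 35 in U87. Each U87 library, left out, ended all calls of members and list genes in both lines, since the spread then came from T98 alone; without either T98 lane 2 library, DUSP5 was the sole member called in T98, and without either T98 lane 4 library DUSP1 passed and DUSP16 did not. DUSP16 was also not called with any value above 0. In those fits a lone sample is assumed to vary like the other groups. Each change of a member's difference under an alternative was set against the SD of its differences by lane, and 443 were smaller and 16 larger. For a single lane, or for an siRNA difference with 1 library of its line left out, the smaller change was fixed in advance. The lane term, the filter and a library of the other line leave an siRNA difference unchanged. Likewise, the lane term, the filter and an LKB1 siRNA library leave a difference between the control libraries of the lines unchanged. All 16 larger changes were in that comparison of the lines. They numbered 4 without T98 control replicate 1, 4 without T98 control replicate 2, 3 without each U87 control library and 2 with quantile normalisation. DUSP1 in T98, which was not called, went from 0.34 to -0.13 without T98 LKB1 replicate 1 and counted among the smaller. Of the list genes' results, 280 no longer passed and 689 were counted as unchanged. The 689 include single-lane results, which have no test and were judged by size of change alone. These were 57 on lane 2 alone, 22 on lane 4 alone, 18 on lane 5 alone and 17 on lanes 4 and 5 alone. No result changed direction after a call. The planned edgeR and DESeq2 tests and TMM scaling were not run, because the authors deposited a normalised signal, and the lane 2 libraries alone give no test. Depth limits DUSP2, DUSP8 and, in T98, DUSP6.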
